A study of Mus musculus with 6 samples.

Results

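Insulin signalling in white adipose tissue (WAT) was described through 9 genes, chosen by name from the pathway: the insulin receptor *Insr*, its adaptors *Irs1* and *Irs2*, the phosphoinositide 3-kinase (PI3K) subunit *Pik3r1*, the kinases *Akt1* and *Akt2*, the transcription factor *Foxo1*, and *Pck1* and *Igfbp3* as downstream genes. They are 9 of the 24346 genes that were measured, and all 9 were among the 12670 genes that passed the filter on low values. Polyadenylated RNA had been sequenced from the epididymal WAT of 3 Armc5 flox and 3 AdArmc5 KO mice, 1 library per mouse. The mice were 24 weeks old and had been fasted for 24 h and then fed again for 6 h. Armc5 flox, the controls, carry *Armc5* flanked by LoxP sites, from which the *lacZ* and neomycin resistance cassettes had been removed with *CAG-FLPe*. AdArmc5 KO carry the same floxed allele together with *Adipoq-Cre*, which is active in adipocytes, so that every other cell type of the tissue keeps *Armc5*. The study compared littermates, and the question here was how the genes of the insulin pathway differed between the genotypes in refed tissue.

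Insulin binds its receptor, a tyrosine kinase on the cell surface, and the receptor phosphorylates the insulin receptor substrate (IRS) adaptors. These recruit PI3K, the lipid product of PI3K activates AKT, and AKT phosphorylates FoxO1, which then leaves the nucleus. In fed adipocytes the pathway raises glucose uptake and lipid synthesis and lowers lipolysis, while in the fasted state nuclear FoxO factors raise genes such as *Irs2* and, in the liver, *Pck1*. In mouse liver, SREBF1 is known to lower the transcription of *Irs2*, and the transcription factor TFE3 is known to act at an E-box of the *Irs2* promoter. The libraries measure transcripts, whereas much of insulin signalling is phosphorylation, which they do not measure.

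The 250 bases before the start of 3 of these genes are shown because the 2 adaptors, whose transcripts were ordered differently over the libraries, carry the same pair of motifs, and because *Pck1* varied most in level among the downstream genes. RefSeq promoters (build GRCm38.p6, which is mm10) matched 8 of the 9 genes, all but *Insr*. Each is written 5′ to 3′ on the strand of its gene, and capitals mark matches to 5 motifs that were searched on both strands: the FoxO core TGTTTAC, the insulin response core TGTTTTG, the core of the cAMP response element (CRE) TGACGT, the E-box CACGTG and the TATA box TATAAA. The windows lie on the minus strand at chr1:82291440-82291689 for *Irs1* and chr8:11008930-11009179 for *Irs2*, and on the plus strand at chr2:173152823-173153072 for *Pck1*.
*Irs1* promoter: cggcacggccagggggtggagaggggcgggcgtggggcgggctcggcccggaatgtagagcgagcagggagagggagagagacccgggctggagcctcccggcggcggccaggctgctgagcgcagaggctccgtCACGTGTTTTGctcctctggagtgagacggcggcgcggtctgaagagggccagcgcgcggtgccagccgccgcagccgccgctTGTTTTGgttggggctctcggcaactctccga
*Irs2* promoter: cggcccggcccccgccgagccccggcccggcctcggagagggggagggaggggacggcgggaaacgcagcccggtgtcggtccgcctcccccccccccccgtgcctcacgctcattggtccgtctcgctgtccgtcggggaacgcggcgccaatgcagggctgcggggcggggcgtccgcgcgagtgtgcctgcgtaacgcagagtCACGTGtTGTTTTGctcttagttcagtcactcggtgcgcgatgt
*Pck1* promoter: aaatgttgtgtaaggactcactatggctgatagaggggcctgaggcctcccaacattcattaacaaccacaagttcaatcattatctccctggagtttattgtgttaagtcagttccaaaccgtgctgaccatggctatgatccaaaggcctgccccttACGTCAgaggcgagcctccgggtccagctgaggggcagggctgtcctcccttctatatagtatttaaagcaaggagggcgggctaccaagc
In *Irs1* the E-box, 115 bases before the start, overlapped an insulin response core that began 111 bases before it, and a second core began 32 bases before the start. In *Irs2* the E-box began 44 bases and the core 37 bases before the start, with 1 base between them. The E-box was present in 6.02% and the insulin response core in 5.56% of 32851 mouse promoters of this length, and 97 promoters (0.295%) held both. In 7 promoters, *Irs1* and *Irs2* among them, the 2 motifs began within 10 bases of each other, a distance that was set after these 2 promoters had been seen. In *Pck1* a CRE core on the other strand, read here as ACGTCA, began 91 bases before the start, and 6.47% of all promoters held this motif. The first *Akt1* promoter held the FoxO core 161 bases before its start, which 3.17% of all promoters did. The start of *Irs2* in RefSeq lies 471 bases upstream of its start in the GENCODE annotation, and that of *Irs1* 23 bases upstream, so the positions depend on the annotation. A match in these windows is a match of letters and says nothing of binding.

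Some libraries stood apart from the rest. Armc5 flox replicate 1 and AdArmc5 KO replicate 2 contained cilia genes and duct epithelium genes. The summed FPKM (the fragments of a gene relative to its transcript length and to the size of the library) of 8 ciliated cell markers was 216 and 190 in these 2 libraries and at most 4.74 in the other 4. That of 8 duct epithelium markers was 275 and 246 in the same 2, 64.4 in AdArmc5 KO replicate 3 and 1.44 to 6.26 in the rest. The library labelled AdArmc5 KO replicate 3 held 2 of 8 markers of the vas deferens and epididymis, *Akr1b7* at an FPKM of 3122 and *Crisp1* at 685, against at most 17.4 and 2.53 elsewhere, and the other 6 were at most 0.19 in it. Of these lists, 1 ciliated, 4 duct epithelium and 6 vas deferens and epididymis markers were at 0 in at least 1 library. *Armc5* itself was at an FPKM of 5.12, 5.66 and 5.58 in the controls. It was at 3.66 and 4.48 in the first 2 AdArmc5 KO libraries. In the library labelled AdArmc5 KO replicate 3 it was at 5.82, above all 3 controls, which goes against its label. These are values of whole tissue, in which other cell types keep *Armc5*. The paper reports *Scd1*, a desaturase gene, as lowered in the WAT of the knockout mice. In AdArmc5 KO replicate 3 *Scd1* was the lowest of all libraries, which goes with its label. Its FPKM there was 249.6, against 3402 to 4339 in the controls. Whether the label of this library is right was not tested. All directions between genotypes given below include this library. The summed FPKM of 9 adipocyte markers ranged from 21823 to 39677, with *Adipoq*, the gene of adiponectin, between 1896 and 4219, so the labelled tissue carried its defining markers in all 6 libraries. Markers of other cell types also lay mostly on one side of 0 in the fit, and none passed an adjusted p of 0.05. Above 0 in log2 fold change were 8 of 8 macrophage markers (summed FPKM of 851 to 1686 in Armc5 flox and 1086 to 1925 in AdArmc5 KO), 6 of 6 smooth muscle, 8 of 8 duct epithelium and 6 of 8 fibroblast and progenitor markers. All 6 mesothelial markers were below 0, with a median of −0.89, and 9 adipocyte markers had a median of −0.21. Of 8 endothelial markers 7 were below 0, with a median of −0.13. Over all genes tested, 56.5% were below 0. The part of these cell types in the results on the 9 genes was not tested. In whole tissue, fewer cells of a type and less RNA per cell cannot be told apart. Depth was between 25320660 and 38311606 fragments per library, and each of the 9 genes rested on normalized counts of 582 (*Irs2* in Armc5 flox replicate 3) to 73470 (*Pck1* in Armc5 flox replicate 2).

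None of the 9 genes passed limma's moderated test of AdArmc5 KO against Armc5 flox on log2(FPKM + 1), and for each of them the values of the 2 groups overlapped. The smallest unadjusted p was 0.104, for *Irs1*, and the adjusted p (Benjamini-Hochberg over all 12670 genes tested) was 0.98 for 8 of them and 0.999 for *Foxo1*. In the same fit 0 of 12670 genes (0%) passed an adjusted p of 0.05, and 425 (3.35%) had an unadjusted p under 0.05, a number that fell to 274 without AdArmc5 KO replicate 1 and rose to 637 without Armc5 flox replicate 2. None of the 9 genes was among the 425. The log2 fold change was below 0 for 7 of the 9 genes and above 0 for *Irs2* and *Foxo1*, against 56.5% below 0 over all genes tested, and its median was −0.32 against −0.03 over all genes. Dividing by the mean of the adipocyte markers moved the median of the 9 genes to −0.08 and that of all genes to 0.21, with *Irs2* and *Foxo1* still the 2 above 0 and the other 7 between −0.44 and −0.02. The values of AdArmc5 KO were all below those of Armc5 flox for 0 of the 9 genes, and for 5.26% of all genes tested.

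**Figure D1:**
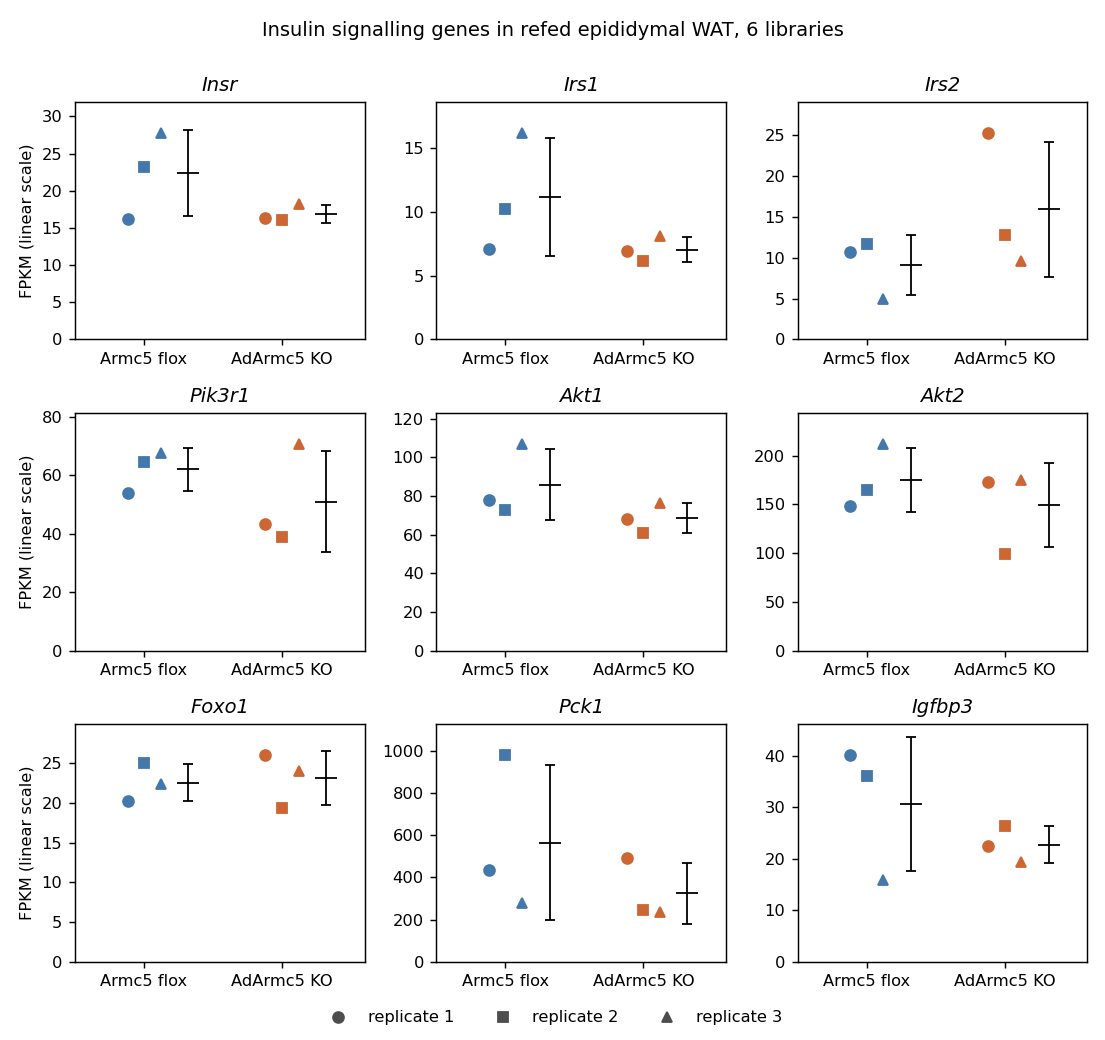
FPKM (linear axes from 0) of the 9 genes in each library, with 1 marker per replicate number, Armc5 flox in blue and AdArmc5 KO in orange; the bar beside each group is its mean with the SD of 3 libraries. The groups overlap in every panel, and Armc5 flox replicate 3 is the highest point for *Insr*, *Irs1*, *Akt1* and *Akt2* and the lowest for *Irs2* and *Igfbp3*.

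Levels per length spanned a wide range among the 9 genes. In median FPKM over the 6 libraries the order was *Pck1* (356), *Akt2* (169), *Akt1* (74.4), *Pik3r1* (59.3), *Igfbp3* (24.5), *Foxo1* (23.2), *Insr* (17.3), *Irs2* (11.2) and *Irs1* (7.60). The lowest library of *Pck1*, at 236, was above the highest of *Akt2*, at 212, while the ranges of each later pair of neighbours overlapped. *Irs2* and *Pck1* varied most from library to library, by 5.12-fold and 4.14-fold between the lowest and the highest, which on the log2(FPKM + 1) scale was a wider span than that of 94.9% and 94.3% of all genes tested. *Foxo1* varied least, by 1.34-fold.

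*Insr* encodes the insulin receptor (chr8:3150922-3279649). Listed from replicate 1 to replicate 3, as throughout, the controls had an FPKM of 16.2, 23.1 and 27.8 and the AdArmc5 KO mice one of 16.3, 16.0 and 18.2. The 3 AdArmc5 KO libraries lay close together at the level of the lowest control, and the spread was in the controls, with a mean of 22.4 ± 5.83 (SD, n = 3) against 16.9 ± 1.17 (SD, n = 3). AdArmc5 KO was the lower in 7 of the 9 pairs of a KO and a control library. limma gave a log2 fold change of −0.36 (SE 0.20, 95% confidence interval −0.85 to 0.14, unadjusted p = 0.127, adjusted p = 0.98). Without Armc5 flox replicate 1, one of the libraries with cilia genes, it was −0.56 (unadjusted p = 0.0104, adjusted p = 0.78), and without Armc5 flox replicate 3 it was −0.19 (unadjusted p = 0.341, adjusted p = 0.9999).

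*Igf1r*, the receptor of insulin-like growth factor 1 (IGF1) and the closest relative of *Insr*, was lower than *Insr* in every library. Its FPKM was 6.89, 3.56 and 2.72 in Armc5 flox and 3.09, 7.35 and 3.03 in AdArmc5 KO, the 2 highest being the libraries with cilia and duct epithelium genes. The ratio of *Insr* to *Igf1r* within a library was 2.35, 6.50 and 10.2 in Armc5 flox and 5.28, 2.18 and 6.001 in AdArmc5 KO, lowest in those same 2 libraries. Between genotypes its log2 differed by −0.39 (exact permutation test, two-sided, p = 0.5, and 0.75 adjusted over the 3 ratios tested), and the sign turned when either Armc5 flox replicate 3 (0.07) or AdArmc5 KO replicate 2 (0.06) was left out. With 3 libraries against 3, this exact test cannot go below p = 0.1. The part of the cilia-bearing libraries in this ratio beyond these values was not tested.

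*Irs1* and *Irs2*, the adaptors that couple the receptor to PI3K, pointed in opposite directions without passing the test. *Irs1* (chr1:82233105-82291439) had an FPKM of 7.10, 10.2 and 16.2 in Armc5 flox and of 6.92, 6.18 and 8.09 in AdArmc5 KO. Armc5 flox replicate 3 stood well above every other library, and 1 of the 9 pairs ran against the rest. Its log2 fold change was −0.53 (SE 0.28, 95% confidence interval −1.21 to 0.15, adjusted p = 0.98 from limma). Leaving out Armc5 flox replicate 3 gave −0.25. Without Armc5 flox replicate 1 it was −0.79, with an unadjusted p of 0.0157 and an adjusted p of 0.78.

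*Irs2* (chr8:10984681-11008929), a known FoxO target that insulin lowers, had an FPKM of 10.7, 11.7 and 4.94 in Armc5 flox and of 25.3, 12.8 and 9.60 in AdArmc5 KO. The highest value was AdArmc5 KO replicate 1 and the lowest Armc5 flox replicate 3, and the remaining 4 libraries lay between 9.60 and 12.8 in both groups. The group means were 9.11 ± 3.64 and 15.9 ± 8.28 (SD, n = 3 each). The log2 fold change was 0.71 (SE 0.43, 95% confidence interval −0.32 to 1.74, unadjusted p = 0.145, adjusted p = 0.98 from limma). Leaving out either extreme library reduced it, to 0.34 for AdArmc5 KO replicate 1 and to 0.36 for Armc5 flox replicate 3.

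The ratio of *Irs2* to *Irs1* within a library was 1.51, 1.14 and 0.304 in Armc5 flox and 3.65, 2.08 and 1.19 in AdArmc5 KO. It was above 1 in 5 of the 6 libraries, and Armc5 flox replicate 3 was the one library in which *Irs1* exceeded *Irs2*. AdArmc5 KO replicate 3, the library whose *Armc5* goes against its label and whose *Scd1* goes with it, was within the range of the controls. The log2 ratio was 1.37 higher in AdArmc5 KO, a 2.58-fold difference of geometric means (exact permutation test, two-sided, p = 0.2, adjusted p = 0.6), and it was 0.66 higher without Armc5 flox replicate 3.

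*Irs3*, an adaptor of rodent adipocytes named here after its values had been seen, was the most abundant adaptor of the IRS family per length in all 6 libraries, with an FPKM of 24.3 to 42.1. It made up 56.1% to 65.8% of the summed FPKM of the 4 IRS genes, while the share of *Irs1* went from 9.31% in AdArmc5 KO replicate 1 to 29.3% in Armc5 flox replicate 3 and that of *Irs2* from 8.91% in Armc5 flox replicate 3 to 34.002% in AdArmc5 KO replicate 1. The fitted log2 fold change of *Irs3* was −0.05 (adjusted p = 0.999 from limma). *Irs4* was at or below 0.03 in FPKM.

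**Figure D2:**
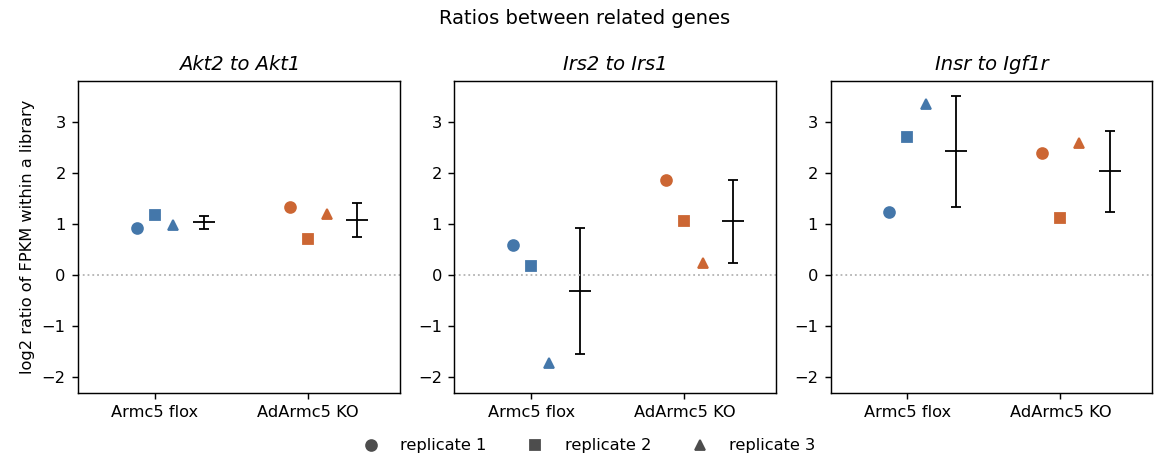
Log2 ratio of the FPKM of 2 genes within each library (dotted line: equal levels), by genotype, 1 marker per replicate number; the bar is the mean of the log2 ratios with the SD of 3 libraries. *Irs2* to *Irs1* is below the line in Armc5 flox replicate 3 alone, and the groups overlap in all 3 panels.

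*Pik3r1* encodes the p85α regulatory subunit of PI3K (chr13:101680761-101768217). Its FPKM was 53.9, 64.8 and 67.7 in Armc5 flox and 43.4, 39.0 and 70.8 in AdArmc5 KO. AdArmc5 KO replicates 1 and 2 were below all 3 controls, and AdArmc5 KO replicate 3 was above them. For *Pik3r1* limma gave a log2 fold change of −0.32 (SE 0.25, 95% confidence interval −0.92 to 0.27, adjusted p = 0.98). Without that library it was −0.58, with an unadjusted p of 0.0186 and an adjusted p of 0.88. Leaving out AdArmc5 KO replicate 2 brought it to −0.15, with an unadjusted p of 0.575 and an adjusted p of 0.999. The library also held *Akr1b7*, *Crisp1* and the highest smooth muscle markers, with a summed FPKM of 1353 for 6 genes against 236 to 698 elsewhere, and their part in its *Pik3r1* level was not tested. *Pik3r1* was the most abundant of its family in every library, at 58.3% to 68.4% of the summed FPKM of *Pik3r1*, *Pik3r2* and *Pik3r3*.

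*Akt1* and *Akt2* encode the kinases downstream of PI3K, and *Akt2* is the form needed for insulin-stimulated glucose uptake in adipocytes. *Akt1* (chr12:112653821-112674884) had an FPKM of 78.1, 72.6 and 106.9 in Armc5 flox and of 68.3, 61.0 and 76.2 in AdArmc5 KO. Armc5 flox replicate 3 was again the highest library, and AdArmc5 KO was the lower in 8 of 9 pairs. Its log2 fold change was −0.31 (SE 0.19, 95% confidence interval −0.76 to 0.15, adjusted p = 0.98 from limma). Leaving out Armc5 flox replicate 3 brought it to −0.14.

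*Akt2* (chr7:27591552-27640826) had an FPKM of 148.9, 164.6 and 212.2 in Armc5 flox and of 173.6, 99.3 and 175.5 in AdArmc5 KO. The low value was AdArmc5 KO replicate 2, a library with cilia genes and with the lowest summed adipocyte markers, and the other 2 AdArmc5 KO libraries lay within the range of the controls. The log2 fold change was −0.26 (SE 0.27, 95% confidence interval −0.92 to 0.40, adjusted p = 0.98 from limma), which moved to −0.11 without Armc5 flox replicate 3 and, with the sign turned, to 0.01 without the low library. *Akt2* exceeded *Akt1* in all 6 libraries, with a ratio of 1.91, 2.27 and 1.98 in Armc5 flox and 2.54, 1.63 and 2.30 in AdArmc5 KO. The log2 ratio differed by 0.05 between genotypes (exact permutation test, two-sided, p = 0.9, adjusted p = 0.9), with a sign that turned, to values between −0.08 and −0.00095, when Armc5 flox replicate 1, AdArmc5 KO replicate 1 or AdArmc5 KO replicate 3 was left out.

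*Foxo1* (chr3:52268337-52350109), whose protein AKT keeps out of the nucleus, was the steadiest of the 9 genes. Its FPKM was 20.2, 24.96 and 22.4 in Armc5 flox and 26.01, 19.4 and 23.97 in AdArmc5 KO, with the groups interleaved. The log2 fold change was 0.03 (SE 0.15, 95% confidence interval −0.34 to 0.40, adjusted p = 0.999 from limma), with a sign that turned when replicate 1 of either genotype was left out (−0.04 for Armc5 flox, −0.06 for AdArmc5 KO). It was the most abundant FoxO gene per length in 5 of 6 libraries, with *Foxo4* above it in Armc5 flox replicate 2.

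*Pck1* (chr2:173153073-173159274) encodes the cytosolic phosphoenolpyruvate carboxykinase, which supplies glycerol 3-phosphate for triglyceride synthesis in adipocytes and is lowered by insulin. Its FPKM was 433, 980 and 279 in Armc5 flox and 491, 245 and 236 in AdArmc5 KO. Armc5 flox replicate 2 was the highest and AdArmc5 KO replicate 1 the next, and the other 4 lay between 236 and 433. These 2 libraries also had the highest summed adipocyte markers, at 39677 and 34282 against 21823 to 28267, a sum set mostly by *Fabp4*, the fatty acid binding protein of adipocytes. Over the other 8 adipocyte markers Armc5 flox replicate 3 was the highest, at 12779 against 11482 and 10998 in these 2. The genotypes differed by a log2 fold change of −0.69 (SE 0.52, 95% confidence interval −1.95 to 0.58, unadjusted p = 0.235, adjusted p = 0.98 from limma). Relative to the mean of the adipocyte markers it was −0.44, and it ran from −1.09 without Armc5 flox replicate 3 to −0.19 without Armc5 flox replicate 2. The mitochondrial form *Pck2* had an FPKM of 11.5 to 15.6 and made up 1.44% to 5.70% of the summed FPKM of both genes.

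*Igfbp3* (chr11:7206086-7215498) encodes a secreted protein that binds insulin-like growth factors in blood and tissue. Its FPKM was 40.2, 36.1 and 15.9 in Armc5 flox and 22.5, 26.5 and 19.3 in AdArmc5 KO. Armc5 flox replicate 3 held the lowest value and the other 2 controls the highest values, so that all AdArmc5 KO libraries lay inside the range of the controls. limma gave a log2 fold change of −0.33 (SE 0.35, 95% confidence interval −1.18 to 0.53, adjusted p = 0.98). Without Armc5 flox replicate 3 it was −0.73, with an unadjusted p of 0.00717 and an adjusted p of 0.9999. Without Armc5 flox replicate 1 it was −0.09, with an unadjusted p of 0.817 and an adjusted p of 0.94. *Igfbp4* and *Igfbp7* were the most abundant of the 6 IGF-binding protein genes set side by side, and *Igfbp3* took 1.73% to 3.61% of their summed FPKM.

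**Figure D3:**
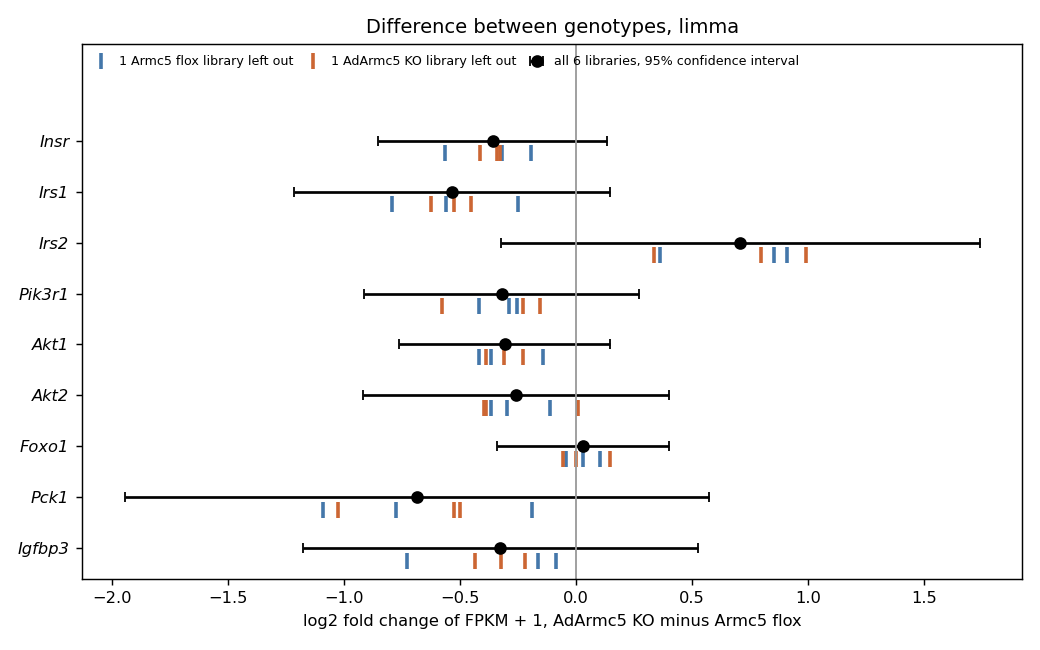
Log2 fold change of FPKM + 1 (AdArmc5 KO minus Armc5 flox) of the 9 genes from limma; black points and bars are the fit of all 6 libraries with its 95% confidence interval, and ticks the fits with 1 Armc5 flox (blue) or 1 AdArmc5 KO (orange) library left out. Every interval includes 0, and leaving out 1 library moved *Pck1* between −1.09 and −0.19 and *Irs2* between 0.34 and 0.99.

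Across the 9 genes, 2 libraries held many of the extreme values. Armc5 flox replicate 3 held the highest value of *Insr*, *Irs1*, *Akt1* and *Akt2* and the lowest of *Irs2* and *Igfbp3*. AdArmc5 KO replicate 2 held the lowest value of 6 genes, *Insr*, *Irs1*, *Pik3r1*, *Akt1*, *Akt2* and *Foxo1*. AdArmc5 KO replicate 1 held the highest of *Irs2* and *Foxo1*.

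The same library stood out in genes that insulin is known to raise in adipocytes. Of 10 such genes, Armc5 flox replicate 3 held the highest value of 8, and AdArmc5 KO replicate 3 the next highest of 7. *Fasn*, the fatty acid synthase, had an FPKM of 85.7, 99.1 and 1433 in Armc5 flox and 136.3, 62.4 and 497 in AdArmc5 KO, and is named here after its values had been seen. *Slc2a4*, the insulin-responsive glucose transporter, which is not among the 10, had an FPKM of 48.2, 107 and 207 in Armc5 flox and 55.2, 51.1 and 111 in AdArmc5 KO. Of the 10, *Lep*, the gene of leptin, and *Scd1* differed from the other 8. *Lep* was lowest in Armc5 flox replicate 3 and AdArmc5 KO replicate 3, at 82.0 and 200.2 against 370 to 932. *Scd1* was highest in Armc5 flox replicate 1, at 4339, and lowest in AdArmc5 KO replicate 3, at 249.6. Armc5 flox replicate 3 and AdArmc5 KO replicate 3 carry different genotype labels. The second is the one whose *Armc5* goes against its label and whose *Scd1* goes with it.

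*Irs2* ran nearly opposite to *Srebf1*, the transcription factor of lipogenesis, over the 6 libraries. *Srebf1* had an FPKM of 113, 97.3 and 321 in Armc5 flox and 74.4, 56.1 and 129 in AdArmc5 KO. The library with the most *Srebf1*, Armc5 flox replicate 3, had the least *Irs2*, the next, AdArmc5 KO replicate 3, had the next least, and the order was broken only by AdArmc5 KO replicates 1 and 2, which had the least *Srebf1* and the most *Irs2* but in exchanged places. *Srebf1* was not alone in its order. *Acaca*, another gene that insulin raises, had an FPKM of 62.3, 90.7 and 338 in Armc5 flox and 45.6, 37.5 and 136 in AdArmc5 KO. *Klf15*, a listed FoxO target, had 24.3, 30.8 and 50.8 in Armc5 flox and 16.5, 14.0 and 42.5 in AdArmc5 KO. Both differed from the order of *Srebf1* only in Armc5 flox replicates 1 and 2. These orders describe 6 libraries and were noticed after the values had been seen. The libraries also differ in other cell types, as given above, and a link between *Srebf1* and *Irs2* was not tested.

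**Figure D4:**
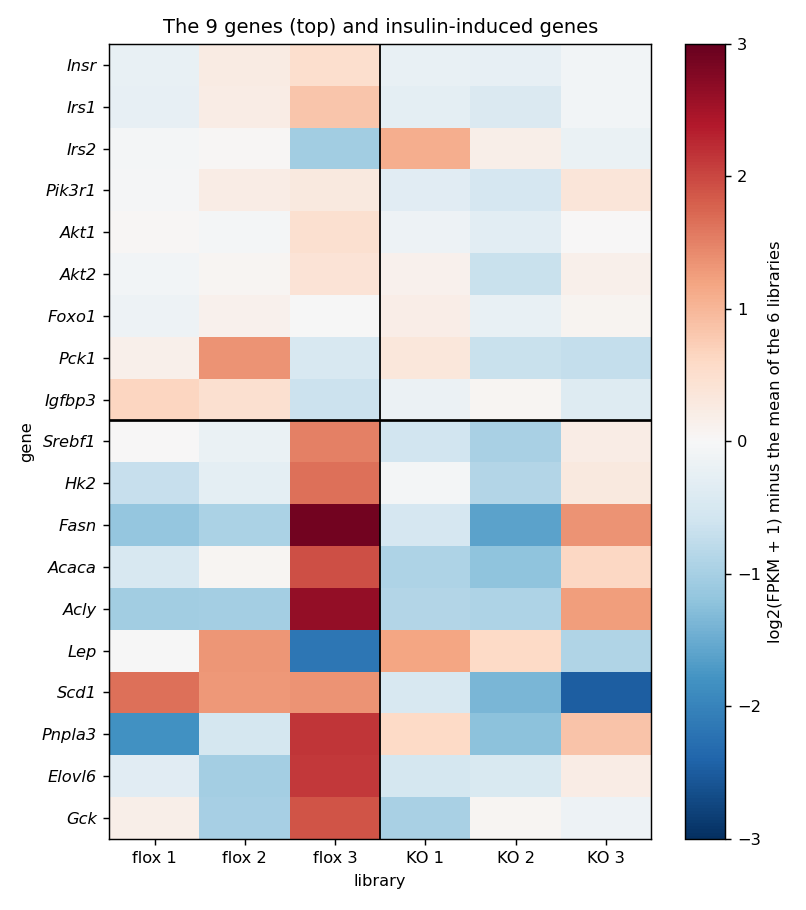
Deviation of log2(FPKM + 1) from the mean of the 6 libraries (colour scale, red above and blue below) for the 9 genes (above the line) and for 10 genes that insulin raises (below it), with libraries in columns and genotypes separated by the vertical line. Armc5 flox replicate 3 is the reddest column below the line, up to 2.88 for *Fasn*, and in the same column *Irs2* is blue.

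The genes with the most similar profile to each of the more variable members were sought by the root mean square difference of their centred log2(FPKM + 1) over the 6 libraries. For *Irs1* these were *Pla2g12a* (0.07), *Sla2* (0.09) and *Pex14* (0.09), all highest in Armc5 flox replicate 3. For *Irs2* they included *Sema3c* (0.13) and *1810062O18Rik* (0.14), and *Sema3c*, a secreted semaphorin, had an FPKM of 13.9, 16.7 and 6.81 in Armc5 flox and 35.04, 21.2 and 16.0 in AdArmc5 KO. For *Akt2* they were *Bckdhb*, *Hnmt* and *Ets1* (each 0.06), and for *Igfbp3* *Spg20* (0.09), *Pde4b* (0.13) and *Irak1bp1* (0.15). *Pck1* had no gene as close, with *Retnlg* (0.31), *Acad11* (0.31) and *Phf8* (0.34).

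The rest of the pathway was described with 105 other genes in 10 lists, of which 95 were tested. None of the 95 passed an adjusted p of 0.05 in limma, against 0% of all genes, and 3 had an unadjusted p under 0.05, which is 3.16% of them against the 3.35% over all genes. Fitted log2 fold changes lay below 0 in 56 of the 95 and above it in 39, with a median of −0.09. The 3 genes, all with lower values in AdArmc5 KO, were *Scd1*, *Rps6kb1* and *Pde3b*. *Scd1*, the stearoyl-CoA desaturase, is treated in the study by itself. It had an FPKM of 4339, 3402 and 3542 in Armc5 flox and 990, 535 and 249.6 in AdArmc5 KO. Its log2 fold change was −2.87 (SE 0.50, unadjusted p = 0.00101, adjusted p = 0.67 from limma). In the paper's own RNA sequencing analysis *Scd1* passed a false discovery rate of 0.05, and its quantitative PCR also found *Scd1* lowered. The test used here thus missed a gene that the paper called. The AdArmc5 KO libraries were all below the controls for 5 of the 95 genes, *Scd1* included, which is 5.26% of them and also 5.26% of all genes tested.

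*Rps6kb1*, the ribosomal S6 kinase downstream of mTOR, had an FPKM of 17.5, 22.3 and 19.9 in Armc5 flox and 14.6, 15.2 and 15.3 in AdArmc5 KO. The 2 groups did not overlap, and the log2 fold change was −0.38 (SE 0.13, unadjusted p = 0.0229, adjusted p = 0.98 from limma). *Pde3b*, the phosphodiesterase through which AKT lowers cyclic AMP and lipolysis, had an FPKM of 79.1, 95.3 and 92.2 in Armc5 flox and 62.7, 49.6 and 76.6 in AdArmc5 KO. Its groups did not overlap either, with a log2 fold change of −0.51 (SE 0.19, unadjusted p = 0.0351, adjusted p = 0.98 from limma).

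The 15 genes of PI3K, AKT and their kinases had a median log2 fold change of −0.10, with 10 below 0, and *Pik3r2*, which came next after *Rps6kb1* by p, was at −0.26. This median ran from −0.19 without Armc5 flox replicate 1 to −0.0023 without Armc5 flox replicate 3. The 12 AKT substrates and effectors had a median of −0.25, with 9 below 0, and the forkhead factor *Foxk2*, whose groups did not overlap, was at −0.27 (unadjusted p = 0.108, adjusted p = 0.98 from limma). The median of these 12 was −0.07 without Armc5 flox replicate 3, −0.10 without AdArmc5 KO replicate 2 and −0.0062 relative to the adipocyte markers. Among 16 negative regulators, 11 were below 0 with a median of −0.13, which was −0.07 without AdArmc5 KO replicate 2. The 2 with the smallest p were *Socs1*, an inhibitor of cytokine and insulin signalling, at −0.72, and the AKT inhibitor *Trib3* at −0.21. Of 9 other adaptors, 5 were below 0 with a median of −0.05, and the receptor-binding adaptors *Sh2b1* and *Sh2b2* had log2 fold changes of −0.35 and −0.84. The medians of the kinases, the negative regulators and the adaptors turned above 0, to 0.14, 0.12 and 0.20, relative to the adipocyte markers. Under that scaling the median of all genes was 0.21, so these medians stayed below it. The median of the adaptors was also above 0 under quantile normalization (0.00445). So it was when Armc5 flox replicate 2 (0.02), AdArmc5 KO replicate 2 (0.11) or AdArmc5 KO replicate 3 (0.07) was left out.

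Genes that FoxO factors raise did not share a direction. Of 11 tested, 6 were above 0 and 5 below, with a median of 0.11. This median was below 0 when Armc5 flox replicate 1 (−0.08), Armc5 flox replicate 3 (−0.05) or AdArmc5 KO replicate 3 (−0.03) was left out, and 0.30 without Armc5 flox replicate 2. The ubiquitin ligase gene *Fbxo32* was at 0.53 and the stress protein gene *Sesn3* at 0.49. *Igfbp1*, a FoxO target of the liver, was below the filter, with an FPKM of 7.02 and 2.87 in the libraries with cilia genes and at most 0.03 in the other 4. The FoxO genes *Foxo3* and *Foxo4* were at 0.34 and 0.01, with a median of 0.17 that was −0.01 without Armc5 flox replicate 3 and 0.32 without Armc5 flox replicate 2.

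The 10 genes that insulin raises had a median log2 fold change of −0.51, with 8 below 0 and *Srebf1* at −0.89 (unadjusted p = 0.137, adjusted p = 0.98 from limma). Without Armc5 flox replicate 3 this median was 0.17, and without Armc5 flox replicate 2 it was −1.13. The 8 glyceroneogenesis genes had a median of −0.15, with 5 below 0 and *Gpd1l* and *Pck2* at −0.19 and −0.16. Leaving out replicate 3 of AdArmc5 KO gave a median of −0.26, and leaving out that of Armc5 flox gave 0.07. Relative to the adipocyte markers the median of these genes was 0.10, against 0.21 for all genes. Among 8 genes of IGF-binding proteins and their partners, 3 were below 0 and 5 above with a median of 0.03 that was 0.24 without Armc5 flox replicate 1, and *Igfals*, the acid-labile subunit, was at 0.56 and *Igfbp6* at −0.24. All 4 tested receptors and ligands were above 0, with a median of 0.10 that ran from 0.02 without Armc5 flox replicate 3 to 0.26 without Armc5 flox replicate 1, and the growth factor genes *Igf1* and *Igf2* were at 0.18 and 0.42. *Ins1* was listed at 0 in all 6 libraries.

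**Figure D5:**
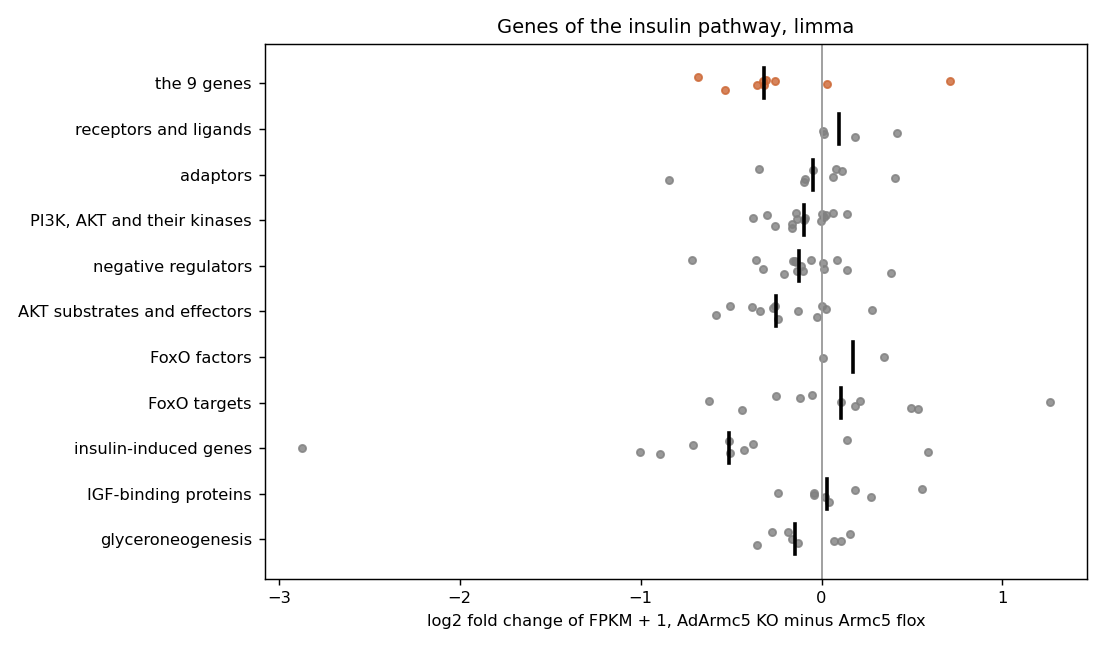
Log2 fold change of FPKM + 1 (AdArmc5 KO minus Armc5 flox) from limma for each tested gene (points) of the 9 genes (orange) and of 10 lists of the insulin pathway (grey), with the list median as a black bar. *Scd1*, at −2.87, is the point at the far left, and no point passed an adjusted p of 0.05.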

How the data were processed

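The authors sequenced polyadenylated RNA as stranded paired-end libraries (TruSeq, NovaSeq) and mapped it to mm10 with TopHat (2.0.13), Bowtie2 (2.2.3) and SAMtools (0.1.19), as given in the methods and the submitters' processing notes. Which annotation was used, and whether counting used strand, is "not given in the sources used here". FPKM in the deposited table were made by the authors with Cuffnorm (2.2.1). It also holds normalized counts, a signal that the authors scaled by a factor per library. Its fold changes and Student's t-test p-values are the authors' own comparison and were not used, nor were 6 further columns of per-sample log2 values.

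Of the normalized counts worth under 30 fragments, 99.0% to 99.3% lay within 0.1 fragment of a whole multiple of a single-fragment value, which gave the depths. Whole fragments could not be recovered across the table, so FPKM were tested as normalized values. Genes that reached an FPKM of 1 in 3 or more of the 6 libraries (12670 of 24346) were fitted as log2(FPKM + 1) with limma (3.58.1, R 4.3.3), with genotype as the only term and a mean-variance trend; the script was tested on simulated data. Such fold changes understate those of low genes. Ratios within a library were compared with an exact permutation test. Genotype and replicate came from the submitters' labels, age and feeding from the paper. The study gives 3 mice per genotype, though the labels number the libraries only.

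The members and lists were chosen with earlier results of these data known. Named are the 9 genes, the 2 tested genes with the smallest p of each list and any past an adjusted p of 0.05, the 3 genes most similar in profile to each member that spans more than 1 on the log2 scale, and genes used in ratios. Relatives of the 9 genes and any other gene were named after their values had been seen. Some genes under this rule are withheld and not given. Alternatives were pseudocounts of 0.1 and 0.5, 2 other filters, quantile and median-of-ratios scaling, no trend, a block for the replicate number, leaving out each library in turn, both cilia-bearing libraries left out, normalized counts in place of FPKM and, added after seeing the data, scaling to the adipocyte marker mean.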

Additional observations from a re-analysis of the deposited data

How the results depend on the processing

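For the 9 genes, 150 of 153 alternative fits kept the direction and 0 of them passed an adjusted p of 0.05, the lowest being 0.78. The 2 other filters, the fit without a trend and the replicate block cannot change a fold change. Their directions were thus fixed in advance, and the other alternatives reuse the same 6 libraries. With 1 library left out, *Foxo1* ran from −0.056 to 0.15, turning below 0 without replicate 1 of Armc5 flox (−0.042) or of AdArmc5 KO (−0.056), and *Akt2* ran from −0.40 to 0.011, turning above 0 without AdArmc5 KO replicate 2. Leaving out 1 library moved the median log2 fold change of the 9 genes between −0.40 and −0.19, and scaling to the adipocyte marker mean moved it to −0.077. That scaling moves every gene by the same amount, upward here because the marker mean was lower in AdArmc5 KO. No gene passed an adjusted p of 0.05 in any alternative. The number with an unadjusted p under 0.05 was 425, 863 without the filter on low values, where more genes are tested, and between 274 and 637 with 1 library left out. With 1 library left out, the log2 ratio difference ran from −0.080 to 0.24 for *Akt2* to *Akt1*, with −0.00095, −0.080 and −0.0090 as the turned values, from −0.99 to 0.070 for *Insr* to *Igf1r*, with 0.070 and 0.065 as the turned values, and from 0.66 to 1.82 for *Irs2* to *Irs1*. The cause of these changes was not tested.

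The replicate numbers did not match the way libraries resembled each other: deviations of same-numbered libraries correlated at −0.53, −0.41 and 0.58. Armc5 flox replicate 1 correlated with AdArmc5 KO replicate 2 at 0.75, and Armc5 flox replicate 2 with AdArmc5 KO replicate 1 at 0.68. Apart from these and the 0.58 of replicate 3, all pairs were below 0. Deviations of 3 libraries from their group mean sum to 0, so a positive pair forces at least 1 other pair of that library below 0. A block in this order was not tested. With the replicate number as a block, 575 genes had an unadjusted p under 0.05, and none passed after adjustment. *Irs2* then had an unadjusted p of 0.0392 (adjusted p = 0.96 from limma). FPKM keep no record of the fragment counts from which counting error could be modelled, and 3 libraries per group limit every test.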
